A study of Homo sapiens with 15 samples.

Results

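The class I antigen presentation genes examined here are 9 named genes of the pathway that displays peptides from inside the cell on major histocompatibility complex class I molecules. They were chosen by name, with earlier results of these data known, and all 9 were found among the 15510 gene rows of the count table. By role they are the heavy chains HLA-B, HLA-C and HLA-E, the light chain B2M, the peptide transporter genes TAP1 and TAP2, the loading factor TAPBP (tapasin), and the immunoproteasome subunits PSMB8 and PSMB9. All 9 passed the filter on low counts that left 13599 genes for testing.

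RNA was sequenced in 15 libraries of 5 human lines, 3 libraries per line, in a study concerned with active RAS and MAPK signalling. By its label, RasV12 holds plasmids for hTERT and p53DD (a p53 fragment that blocks p53), for cyclin D1 and CDK4R24C (an activated CDK4), and for H-RasV12, an active RAS. MekDD is labelled with the same plasmids and MEK-DD, an active form of the kinase below RAS and RAF, in place of H-RasV12. AKTmyr is labelled with them and myr-HA-Akt, an AKT held at the membrane. T53D4 is labelled with hTERT, p53DD, cyclin D1 and CDK4R24C with no further oncogene, and ARPE19 is the established retinal pigment epithelial line from which the other 4 were made, with no transfection. All lines were grown in DMEM/F12 with serum. The labels call RasV12 and AKTmyr transformed, MekDD weakly transformed, and T53D4 and ARPE19 not transformed. There is 1 line per construct, and each replicate came from its own thawed vial, so p-values cover the spread between vials and cultures and not between independent transfections.

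Reads on genes numbered 20.63 to 46.55 M per library, and replicate 3 was the shallowest library in each line. The oncogene constructs were highest in the lines labelled with them. HRASV12 held 310 ± 30.4 CPM in RasV12 (CPM, read counts scaled to library size, ± SD, n = 3). MEKDD held 753 ± 229 CPM in MekDD, and the AKT construct 840 ± 334 CPM in AKTmyr. In the other lines, ARPE19 included, the AKT row averaged 104 to 118 CPM and the HRASV12 row 18.6 to 23.2 CPM. The MEKDD row averaged at most 0.0673 CPM outside MekDD. The CCND1 construct row held 2350 ± 121 CPM in RasV12, 270 ± 57.6 in MekDD, 858 ± 132 in AKTmyr, 146 ± 32.1 in the libraries labelled T53D4 and 193 ± 41.6 in ARPE19. The CDK4R24C row held 2380 ± 23.3 CPM in RasV12, 142 ± 13.7 in MekDD, 1006 ± 90.1 in AKTmyr, 92.2 ± 11.8 in T53D4 and 70.7 ± 12 in ARPE19, so these rows do not set T53D4 apart from ARPE19. The hTERT and p53DD rows did set these 2 lines apart. The hTERT row held 879 ± 147 CPM in T53D4 and 0.176 ± 0.0538 in ARPE19. The p53DD row held 70.7 ± 20.1 CPM in T53D4 and 0.00976 ± 0.0169 in ARPE19. In RasV12, MekDD and AKTmyr the hTERT row held 1244 ± 66.4, 454 ± 58.2 and 633 ± 175 CPM. The p53DD row held 111 ± 12.4, 32.3 ± 8.36 and 58.4 ± 20.1 CPM there. The lines thus differ in these construct rows as well as in the oncogene, and the effects of the oncogene and of these constructs on the members cannot be told apart. Of 11 listed markers of retinal pigment epithelium, 10 had a row, and the defining gene RPE65 stayed at or below 0.154 CPM in all 15 libraries, while OTX2 lay between 44.2 and 110 CPM. The summed level of this list was 855 to 1035 CPM in RasV12, 1119 to 1398 in MekDD, 1323 to 2027 in AKTmyr, 1583 to 1942 in T53D4 and 2453 to 2527 in ARPE19. Of its 9 tested genes, 4 were called lower and 0 higher in RasV12 against T53D4, where 13.6% of all genes were called lower. The part of this list in the member levels was not tested. Of 10 listed markers of leukocytes and professional antigen-presenting cells, 8 had a row, and their summed level was 16.2 to 57.6 CPM in RasV12, 2.34 to 8.49 in MekDD, 11.2 to 28.8 in AKTmyr, 6.43 to 8.76 in T53D4 and 9.70 to 11.3 in ARPE19. CD74 made up most of the sum in RasV12, where 3 of the listed genes averaged 1 CPM or more. The defining leukocyte genes PTPRC, CD14 and LYZ stayed at or below 0.380 CPM in each library. Of the 5 tested genes of this list, 4 were called higher and 1 lower in RasV12 against T53D4. In AKTmyr against T53D4, 2 were called higher and 0 lower. Of all genes, 24.4% and 20.1% were called in either direction in these comparisons. The part of this list in the member levels was not tested either.

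Class I molecules are built in the endoplasmic reticulum from a polymorphic heavy chain and the invariant light chain B2M. Peptides are cut in the cytosol by proteasomes, in which PSMB8 and PSMB9 can replace the standard catalytic subunits PSMB5 and PSMB6, and are pumped into the endoplasmic reticulum by the TAP1 and TAP2 transporter, where tapasin helps to load them. Interferons, NF-kB and the coactivator NLRC5 are known to raise transcription of most of these genes, and reduced class I levels are known in many tumour cells.

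The upstream sequences of 5 members are shown, for a pair of heavy chains, the light chain and the divergent TAP1 and PSMB9 genes, because known interferon and NF-kB elements of class I genes lie there. For HLA-E no window was found. They are RefSeq windows of 250 bases before the first transcribed base on build GRCh38.p14, written in the direction of transcription. Capitals mark matches, on either strand, to the interferon regulatory factor core AANNGAAA, to the interferon-stimulated response element core GAAANNGAAA, which contains that core, or to the kB-like motif GGGANNNNCC.
HLA-B, chr6:31357180-31357429, minus strand: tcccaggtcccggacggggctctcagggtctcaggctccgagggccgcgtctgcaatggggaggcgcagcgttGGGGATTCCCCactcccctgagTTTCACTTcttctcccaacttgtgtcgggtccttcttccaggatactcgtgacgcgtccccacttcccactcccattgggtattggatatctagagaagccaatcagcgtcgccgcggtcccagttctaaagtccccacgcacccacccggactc
HLA-C, chr6:31272093-31272342, minus strand: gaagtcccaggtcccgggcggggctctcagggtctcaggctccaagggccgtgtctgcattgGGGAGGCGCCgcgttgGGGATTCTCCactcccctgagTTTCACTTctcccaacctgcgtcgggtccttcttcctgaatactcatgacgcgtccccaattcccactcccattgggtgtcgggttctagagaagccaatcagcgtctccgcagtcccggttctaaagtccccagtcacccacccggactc
B2M, chr15:44711267-44711516, plus strand: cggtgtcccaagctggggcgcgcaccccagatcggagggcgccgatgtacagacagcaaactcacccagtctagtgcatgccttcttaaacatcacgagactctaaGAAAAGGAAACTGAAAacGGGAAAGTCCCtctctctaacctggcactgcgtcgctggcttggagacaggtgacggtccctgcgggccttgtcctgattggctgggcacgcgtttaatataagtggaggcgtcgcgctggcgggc
TAP1, chr6:32853705-32853954, minus strand: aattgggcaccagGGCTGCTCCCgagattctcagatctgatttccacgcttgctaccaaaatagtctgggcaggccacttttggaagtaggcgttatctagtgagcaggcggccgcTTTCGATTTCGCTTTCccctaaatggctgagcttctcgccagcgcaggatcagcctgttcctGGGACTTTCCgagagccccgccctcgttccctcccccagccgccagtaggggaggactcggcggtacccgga
PSMB9, chr6:32853942-32854191, plus strand: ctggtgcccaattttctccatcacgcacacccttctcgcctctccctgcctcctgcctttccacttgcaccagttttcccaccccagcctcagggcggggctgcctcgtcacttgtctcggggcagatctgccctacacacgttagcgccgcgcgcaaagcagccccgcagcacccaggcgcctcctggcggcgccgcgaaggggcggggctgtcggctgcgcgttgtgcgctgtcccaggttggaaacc
The HLA-B and HLA-C windows were identical at 226 of 254 aligned columns (89.0%). By the RefSeq starts of the printed windows, TAP1 and PSMB9 start 488 bases apart and are transcribed away from each other. The deposited annotation used for the counts begins PSMB9 at base 32844136, so its annotated span there covers TAP1 (32845209 to 32853978). The table held 10 windows for 8 of the 9 members, with more than 1 window for TAP1 and PSMB8, whose further windows held none of these 3 motifs. The AANNGAAA core was present in 6 of the 10 windows (B2M, HLA-B, HLA-C, TAP1, TAP2 and TAPBP), against 20.3% of 35116 windows of the same length. The longer GAAANNGAAA core was present in 4 windows (B2M, TAP1, TAP2 and TAPBP), against 3.0% of all windows. The kB-like motif was present in 5 windows (B2M, HLA-B, HLA-C, TAP1 and TAPBP), against 22.6%. These matches describe letters and do not show that a factor binds.

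HLA-B, a classical heavy chain that presents peptides to CD8 T cells, had the widest spread between lines among the heavy chains, with the highest mean in AKTmyr and the lowest in RasV12. The gene is annotated on chromosome 6 (hg38, 31269491 to 31357188, minus strand), and 35 of its exon bases are shared with HLA-C. HLA-B had 282, 252 and 532 CPM in the 3 RasV12 libraries, 677, 479 and 531 CPM in MekDD, and 1603, 1185 and 793 CPM in AKTmyr. It had 928, 555 and 510 CPM in T53D4 and 821, 543 and 526 CPM in ARPE19. RasV12 replicates 1 and 2 were the lowest of the 15 libraries, and RasV12 replicate 3 lay within the range of T53D4 and ARPE19. AKTmyr replicates 1 and 2 were above every library of the other lines, and AKTmyr replicate 3 lay inside the range of T53D4 and ARPE19.

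HLA-C, the second classical heavy chain and also a ligand of inhibitory receptors on natural killer cells, kept the same extremes with a smaller spread (chromosome 6, 31268749 to 31272130, minus strand). HLA-C had 416, 376 and 684 CPM in RasV12, 549, 483 and 604 CPM in MekDD, and 1233, 965 and 778 CPM in AKTmyr. It had 706, 518 and 555 CPM in T53D4 and 667, 508 and 529 CPM in ARPE19. The AKTmyr libraries lay above the libraries of all 4 other lines, and the other lines overlapped one another. HLA-E, a heavy chain of low polymorphism that is read by the NKG2A receptor of natural killer cells (chromosome 6, 30489509 to 30494194, plus strand), had 177, 195 and 297 CPM in RasV12, 187, 228 and 230 CPM in MekDD, and 343, 364 and 258 CPM in AKTmyr. Its levels were 216, 268 and 207 CPM in T53D4 and 305, 244 and 213 CPM in ARPE19. The 2 highest HLA-E libraries were both AKTmyr libraries, while the third AKTmyr library overlapped RasV12, T53D4 and ARPE19. Summed over the 3 heavy chains, the level was 1070 ± 385 CPM in RasV12, 1323 ± 117 in MekDD, 2507 ± 675 in AKTmyr, 1488 ± 315 in T53D4 and 1452 ± 296 in ARPE19 (SD, n = 3 each). A sequence of 50 bases shared with the coding transcripts of another gene was found for 2.06% of HLA-B, 6.05% of HLA-C and 5.13% of HLA-E positions, and how reads that fit several genes were counted is not given in the sources used here.

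**Figure D1:**
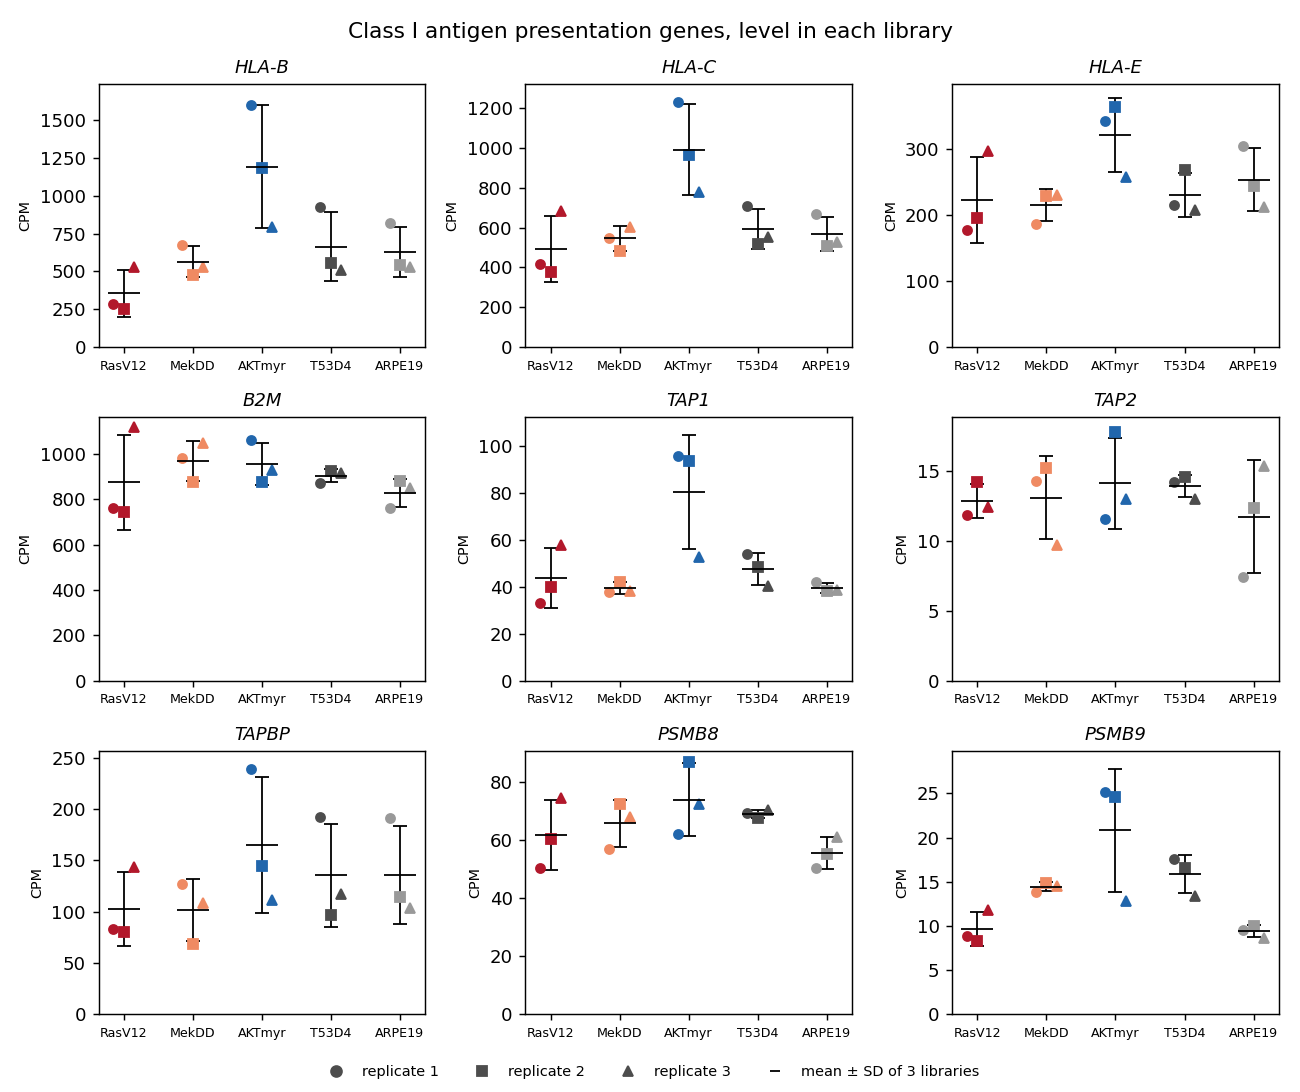
Level of each class I antigen presentation gene in CPM (vertical axes, from 0, 1 panel per gene) in the 3 libraries of each of the 5 lines, with a bar for the mean ± SD. HLA-B, HLA-C and TAP1 were highest in AKTmyr, and B2M and TAP2 varied little between lines.

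B2M, the light chain shared by all class I molecules and the sole member on another chromosome (chromosome 15, 44711487 to 44718877, plus strand), did not follow the heavy chains. B2M averaged 874 ± 210 CPM in RasV12, 968 ± 87.6 in MekDD, 955 ± 93.5 in AKTmyr, 903 ± 29.3 in T53D4 and 829 ± 62.2 in ARPE19 (SD, n = 3 each). Its highest library was RasV12 replicate 3 at 1116 CPM, and its other 14 libraries lay between 746 and 1059 CPM. No comparison between lines was called for B2M, and neighbouring lines in the order of its means differed by less than their spread.

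TAP1, the first of the 2 transporter subunits (chromosome 6, 32845209 to 32853978, minus strand), was high in AKTmyr. TAP1 had 33.0, 39.9 and 57.8 CPM in RasV12, 37.8, 42.2 and 38.2 CPM in MekDD, and 95.5, 93.5 and 52.5 CPM in AKTmyr. It had 54.1, 48.2 and 40.2 CPM in T53D4 and 41.9, 38.1 and 38.5 CPM in ARPE19. Replicates 1 and 2 of AKTmyr were above all libraries of the other lines, and AKTmyr replicate 3 overlapped RasV12 and T53D4. TAP2, the partner subunit (chromosome 6, 32821833 to 32838770, minus strand), had its highest mean in AKTmyr, at 14.1 ± 3.27 CPM, and its lowest in ARPE19, at 11.7 ± 4.03 CPM, and all 5 lines overlapped. Of the TAP2 exon bases, 32.2% are shared with the gene AL669918.1 on the same strand, so its counts are uncertain. TAPBP, which bridges the transporter and the empty class I molecule (chromosome 6, 33299694 to 33314387, minus strand), averaged 102 ± 36.0 CPM in RasV12, 102 ± 30.0 in MekDD, 165 ± 66.6 in AKTmyr, 135 ± 50.2 in T53D4 and 136 ± 47.9 in ARPE19. The libraries of all 5 lines overlapped.

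PSMB9, the immunoproteasome subunit beta1i (chromosome 6, 32844136 to 32859851, plus strand), is with TAP2 one of the members with the fewest reads, and it was lowest in RasV12 and ARPE19. PSMB9 had 8.80, 8.25 and 11.8 CPM in RasV12, 13.9, 14.9 and 14.5 CPM in MekDD, and 25.1, 24.6 and 12.8 CPM in AKTmyr. It had 17.5, 16.6 and 13.4 CPM in T53D4 and 9.55, 10.0 and 8.62 CPM in ARPE19. The RasV12 libraries lay below all MekDD, AKTmyr and T53D4 libraries and overlapped ARPE19, the untransfected line. PSMB8, the subunit beta5i (chromosome 6, 32840717 to 32844679, minus strand), moved less, with means of 61.6 ± 12.1 CPM in RasV12, 65.6 ± 7.99 in MekDD, 73.7 ± 12.5 in AKTmyr, 69.0 ± 1.36 in T53D4 and 55.4 ± 5.40 in ARPE19. PSMB8 and PSMB9 share 139 exon bases on opposite strands, and whether counting used strand is not given in the sources used here.

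In RasV12 against T53D4, 1 of the 9 members was called, PSMB9, and it was lower. Genes called lower made up 13.6% of the 13599 tested in this comparison. PSMB9 averaged 9.61 ± 1.91 CPM in RasV12 and 15.8 ± 2.14 CPM in T53D4 (SD, n = 3 each), a log2 fold change of -0.73 (SE 0.22, adjusted p = 0.0283, edgeR quasi-likelihood test, Benjamini-Hochberg adjusted), with no overlap between the lines, while 40.1% of all genes did not overlap. HLA-B averaged 355 ± 154 CPM in RasV12 and 664 ± 229 CPM in T53D4, a log2 fold change of -0.90 (SE 0.33) that missed the threshold (adjusted p = 0.0627, edgeR quasi-likelihood test, Benjamini-Hochberg adjusted). The fitted log2 fold changes of the 9 members lay between -0.90 and -0.05, with a median of -0.16 against 0.01 over all genes tested. With the replicate number as a block, 2 members were called, PSMB9 and HLA-B, with HLA-B at a log2 fold change of -0.84 (adjusted p = 0.0393, edgeR with Benjamini-Hochberg adjustment). The block called 2259 genes higher and 2607 lower of all 13599, against 1466 and 1847 in the main fit. DESeq2 also called HLA-B (adjusted p = 0.0275), and without RasV12 replicate 3 its log2 fold change was -1.31 (adjusted p = 0.0135, edgeR), while PSMB9 was lost on leaving out any of 4 libraries (RasV12 replicate 1 or 2, T53D4 replicate 1 or 2).

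The difference between RasV12 and T53D4 was not of one size across same-numbered libraries. For HLA-B, the difference in log2 CPM was -1.72 for the replicates numbered 1, -1.14 for those numbered 2 and 0.06 for those numbered 3. For PSMB9 it was -0.99 for the replicates numbered 1, much the same for those numbered 2, and -0.19 for those numbered 3. RasV12 replicate 3 was the highest RasV12 library for 8 of the 9 members. In that library CD74, the class II invariant chain, stood at 48.0 CPM, against 11.8 and 25.0 CPM in RasV12 replicates 1 and 2, and CTSS, a lysosomal protease of the class II pathway, stood at 24.5 CPM, against 1.68 and 2.43 CPM. Their part in the member levels of that library was not tested.

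In MekDD against T53D4, 0 of the 9 members were called by edgeR's quasi-likelihood test, by DESeq2 or at an unadjusted p under 0.05, against 5.1% of all genes called in either direction by edgeR. The replicates of the lines overlapped for all 9, where 24% of all genes did not overlap. The fitted log2 fold changes lay between -0.41 for TAPBP and 0.10 for B2M. HLA-B averaged 563 ± 103 CPM in MekDD and 664 ± 229 CPM in T53D4 (log2 fold change -0.24, SE 0.33). This missed threshold does not show that the members were equal in the 2 lines.

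In AKTmyr against T53D4, 2 of the 9 members were called and both were higher, HLA-C and TAP1. Genes called higher made up 9.91% of those tested. HLA-C averaged 992 ± 229 CPM in AKTmyr and 593 ± 100 CPM in T53D4 (SD, n = 3 each), a log2 fold change of 0.74 (SE 0.23, adjusted p = 0.0365, edgeR quasi-likelihood test, Benjamini-Hochberg adjusted), with no overlap. TAP1 averaged 80.5 ± 24.3 CPM in AKTmyr and 47.5 ± 6.95 CPM in T53D4, a log2 fold change of 0.76 (SE 0.22, adjusted p = 0.0281, same edgeR test), with overlap. Over all genes, 35.5% did not overlap. HLA-B averaged 1194 ± 405 CPM in AKTmyr and 664 ± 229 CPM in T53D4 and had the highest fitted log2 fold change, 0.85 (SE 0.33), but it missed the threshold (adjusted p = 0.0871, edgeR with Benjamini-Hochberg adjustment). It was called with the replicate number as a block (log2 fold change 0.86, adjusted p = 0.0352, edgeR). All 9 fitted log2 fold changes were above 0, with a median of 0.40 against -0.01 over all genes.

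Both calls were lost on leaving out AKTmyr replicate 1 or 2 or T53D4 replicate 2 or 3, and on fitting the 2 lines alone, settings with fewer libraries. There the log2 fold changes were 0.57 to 0.76 for HLA-C and 0.64 to 0.78 for TAP1. DESeq2 called HLA-B as well as these 2 genes (adjusted p = 0.0381). Without AKTmyr replicate 3, 4 members were called, and the log2 fold change of PSMB9 was 0.65 (adjusted p = 0.0173, edgeR with Benjamini-Hochberg adjustment), against 0.40 (SE 0.22, adjusted p = 0.217) with all 15 libraries. Over all 13789 genes tested there, 1359 were called higher and 1310 lower. Fitting the 2 lines alone called 788 higher and 661 lower of 13164. AKTmyr replicate 3 was the lowest AKTmyr library for 6 of the 9 members and the highest for 0.

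**Figure D2:**
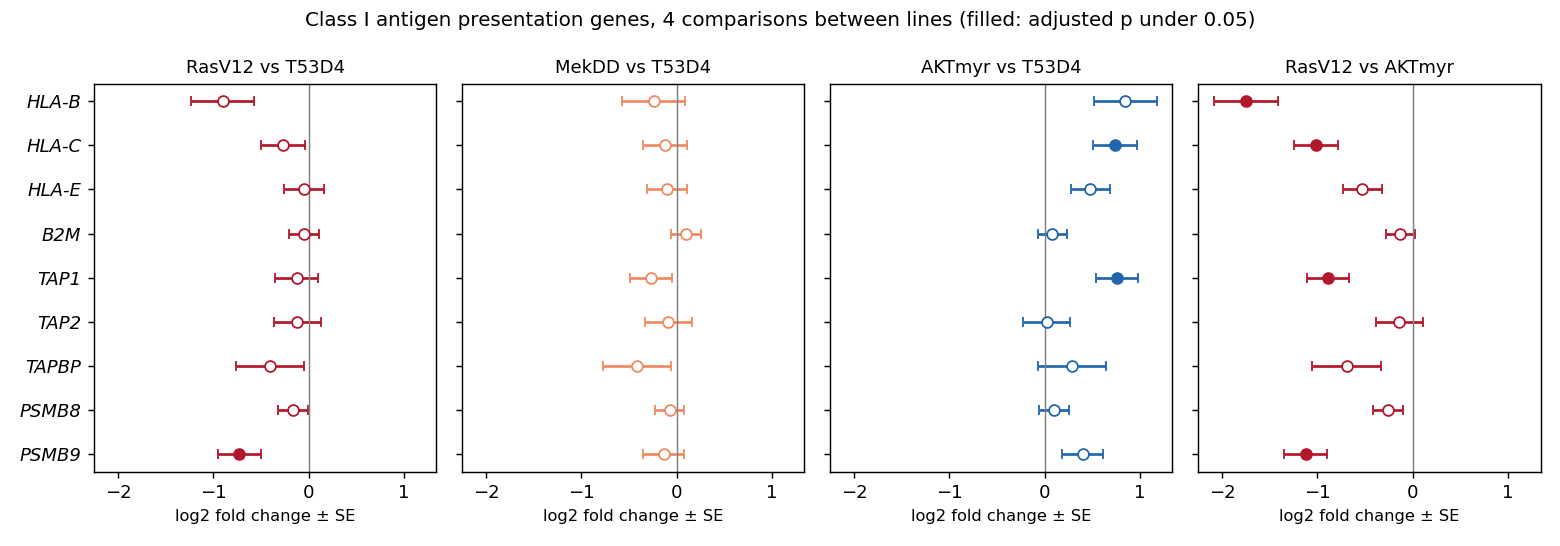
Fitted log2 fold change ± SE (horizontal axes) of the 9 class I antigen presentation genes in RasV12, MekDD and AKTmyr against T53D4 and in RasV12 against AKTmyr. Filled points have an adjusted p under 0.05 by edgeR, namely PSMB9 in the first panel, none in the second, HLA-C and TAP1 in the third, and HLA-B, HLA-C, TAP1 and PSMB9 in the fourth.

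Set directly against each other, the transformed lines RasV12 and AKTmyr showed the most member calls of the 10 comparisons made between lines. This comparison also had the most calls over all genes tested, so the rank is not particular to the members. Of the 9 members, 4 were called and all 4 were lower in RasV12, namely HLA-B, HLA-C, TAP1 and PSMB9, while 20.7% of all genes tested were called lower and 40.4% in either direction. HLA-B was 3.36-fold lower in RasV12, a log2 fold change of -1.75 (SE 0.34, adjusted p = 0.00118, edgeR quasi-likelihood test, Benjamini-Hochberg adjusted), with means of 355 ± 154 CPM in RasV12 and 1194 ± 405 CPM in AKTmyr. PSMB9 was 2.18-fold lower (log2 fold change -1.12, SE 0.22, adjusted p = 0.00138, same edgeR test) and HLA-C 2.02-fold lower (log2 fold change -1.01, SE 0.23, adjusted p = 0.00358, same edgeR test). TAP1 was 1.85-fold lower (log2 fold change -0.89, SE 0.22, adjusted p = 0.00635, same edgeR test). HLA-B, HLA-C and PSMB9 did not overlap between the lines, as was the case for 48.4% of all genes, whereas the highest RasV12 library of TAP1 (57.8 CPM) exceeded the lowest AKTmyr library (52.5 CPM).

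HLA-E (log2 fold change -0.53, SE 0.21, adjusted p = 0.0571, edgeR with Benjamini-Hochberg adjustment) and TAPBP (-0.69, SE 0.36, adjusted p = 0.142) missed the threshold, and B2M, TAP2 and PSMB8 differed by at most 0.26 on the log2 scale. HLA-E was called by DESeq2 (adjusted p = 0.0321). All 4 called members were also called in each of the 13 alternatives, with HLA-B between -2.40 and -1.49 on the log2 scale. The size of the difference varied between same-numbered libraries. It is given as a description, since in this comparison the numbers did not meet the limit for pairing stated in the processing section. For HLA-B, the difference in log2 CPM was -2.51 and -2.24 for replicates 1 and 2 and -0.58 for replicate 3, and for TAP1 it was -1.53 and -1.23 for replicates 1 and 2 and 0.14 for replicate 3.

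In MekDD against AKTmyr, 3 of the 9 members were called and all 3 were lower in MekDD, against 13.5% of all genes called lower and 26.2% called in either direction. TAP1 averaged 39.4 ± 2.43 CPM in MekDD and 80.5 ± 24.3 CPM in AKTmyr, a log2 fold change of -1.03 (SE 0.22, adjusted p = 0.00468, edgeR quasi-likelihood test, Benjamini-Hochberg adjusted). HLA-B (log2 fold change -1.09, SE 0.33, adjusted p = 0.0283) and HLA-C (-0.86, SE 0.23, adjusted p = 0.0148) were the other two by the same edgeR test, and none of the 3 overlapped between the lines, where 39.5% of all genes did not. HLA-E did not overlap either (log2 fold change -0.58, SE 0.21) and missed the threshold (adjusted p = 0.0540, edgeR). It was called with the replicate number as a block (adjusted p = 0.0449, edgeR), with DESeq2 size factors (adjusted p = 0.0463, edgeR), by DESeq2 (adjusted p = 0.0224) and without AKTmyr replicate 3 (adjusted p = 0.0284, edgeR). Leaving out MekDD replicate 2 or AKTmyr replicate 1 left 1 member called, and leaving out AKTmyr replicate 3 gave 5. Calls over all genes were 1092 higher and 1179 lower of 13742 without MekDD replicate 2. They were 1072 and 1282 of 13685 without AKTmyr replicate 1, and 1774 and 1924 of 13789 without AKTmyr replicate 3.

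In RasV12 against MekDD, 0 of the 9 members were called by edgeR's quasi-likelihood test or by DESeq2, and 1 had an unadjusted p under 0.05, against 15.5% of all genes called in either direction. PSMB9 averaged 9.61 ± 1.91 CPM in RasV12 and 14.4 ± 0.522 CPM in MekDD without overlap, as was the case for 34.3% of all genes, and it missed the threshold (log2 fold change -0.59, SE 0.22, adjusted p = 0.0934, edgeR with Benjamini-Hochberg adjustment).

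Against the untransfected ARPE19 line, edgeR called members in AKTmyr and in none of the other 3 transfected lines. In AKTmyr, 3 of 9 were called and all 3 were higher, against 7.98% of all genes called higher and 16.8% in either direction. PSMB9 averaged 20.8 ± 6.98 CPM in AKTmyr and 9.40 ± 0.710 CPM in ARPE19, a log2 fold change of 1.15 (SE 0.22, adjusted p = 0.00343, edgeR quasi-likelihood test, Benjamini-Hochberg adjusted). TAP1 had a log2 fold change of 1.03 (SE 0.22, adjusted p = 0.00731) and HLA-C one of 0.80 (SE 0.23, adjusted p = 0.0289) by the same edgeR test. TAP1 and PSMB9 were called in each of the 13 alternatives. The HLA-C call was lost without AKTmyr replicate 1 (adjusted p = 0.118) or 2 (0.0572), without ARPE19 replicate 2 (0.112) or 3 (0.0852) and with the 2 lines alone (0.0502), all by edgeR. With the replicate number as a block, 5 members were called in AKTmyr, HLA-B (adjusted p = 0.0295, edgeR) and PSMB8 (adjusted p = 0.0202, edgeR) being added, and DESeq2 added HLA-B (adjusted p = 0.0273). Over all genes, the block called 1960 higher and 2067 lower, and DESeq2 1425 and 1435, against 1085 and 1205 in the main fit. PSMB9, TAP1, HLA-C and PSMB8 did not overlap between AKTmyr and ARPE19, as was the case for 31.9% of all genes. In RasV12 against ARPE19, edgeR called 0 members and DESeq2 1 (HLA-B), and 1 had an unadjusted p under 0.05. There 30.7% of all genes were called in either direction, and 0 members but 44.2% of all genes did not overlap. In MekDD against ARPE19, edgeR and DESeq2 called 0, 1 had an unadjusted p under 0.05, and 10.9% of all genes were called. PSMB9 alone did not overlap there, against 30.7% of all genes. In T53D4 against ARPE19, edgeR and DESeq2 called 0 and 1 had an unadjusted p under 0.05, against 0.154% of all genes called. PSMB8 and PSMB9 did not overlap there, against 16.6% of all genes, and the T53D4 PSMB9 level lay above ARPE19 without overlap at 15.8 ± 2.14 CPM in T53D4 and 9.40 ± 0.710 CPM in ARPE19 (log2 fold change 0.75, SE 0.22, adjusted p = 0.234, edgeR with Benjamini-Hochberg adjustment). All comparisons with AKTmyr share its 3 libraries, as those with T53D4 or ARPE19 share theirs, so the calls are not independent of one another.

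Ratios between members within a library do not depend on library scaling, and each is read across lines and not as a level per gene length. The HLA-B to HLA-C ratio was 0.679, 0.669 and 0.778 in RasV12, below each of the other 12 libraries, of which the lowest was 0.879. It averaged 1.04 ± 0.182 in MekDD, 1.18 ± 0.145 in AKTmyr, 1.10 ± 0.199 in T53D4 and 1.10 ± 0.121 in ARPE19. The separation held for RasV12 replicate 3, whose HLA-B level itself overlapped the other lines. The HLA-B to B2M ratio was 0.395 ± 0.0727 in RasV12, 0.582 ± 0.0969 in MekDD, 1.24 ± 0.344 in AKTmyr, 0.741 ± 0.282 in T53D4 and 0.773 ± 0.267 in ARPE19, and its RasV12 libraries (0.337 to 0.477) lay below all other libraries. The exact two-sided permutation test of 3 against 3 libraries gave p = 0.1 for RasV12 against T53D4 for both ratios, which is the smallest value this design allows, and adjusted over the 80 ratio tests made it was 0.308.

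For the proteasome, PSMB9 was set against PSMB6, the standard subunit whose place it takes. The PSMB9 to PSMB6 ratio averaged 0.110 ± 0.0298 in RasV12, 0.185 ± 0.0031 in MekDD, 0.265 ± 0.102 in AKTmyr, 0.196 ± 0.0253 in T53D4 and 0.134 ± 0.0230 in ARPE19. RasV12 lay below MekDD, AKTmyr and T53D4 without overlap and overlapped ARPE19. The PSMB8 to PSMB5 ratio averaged 0.560 ± 0.0937 in RasV12, 0.742 ± 0.0569 in MekDD, 0.748 ± 0.106 in AKTmyr, 0.760 ± 0.0468 in T53D4 and 0.659 ± 0.0418 in ARPE19. RasV12 did not overlap MekDD or T53D4 and overlapped AKTmyr and ARPE19. PSMB5 itself averaged 110 ± 3.53 CPM in RasV12 and 91.1 ± 7.15 CPM in T53D4. For both ratios, the permutation test of RasV12 against T53D4 gave p = 0.1 (adjusted 0.308).

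**Figure D3:**
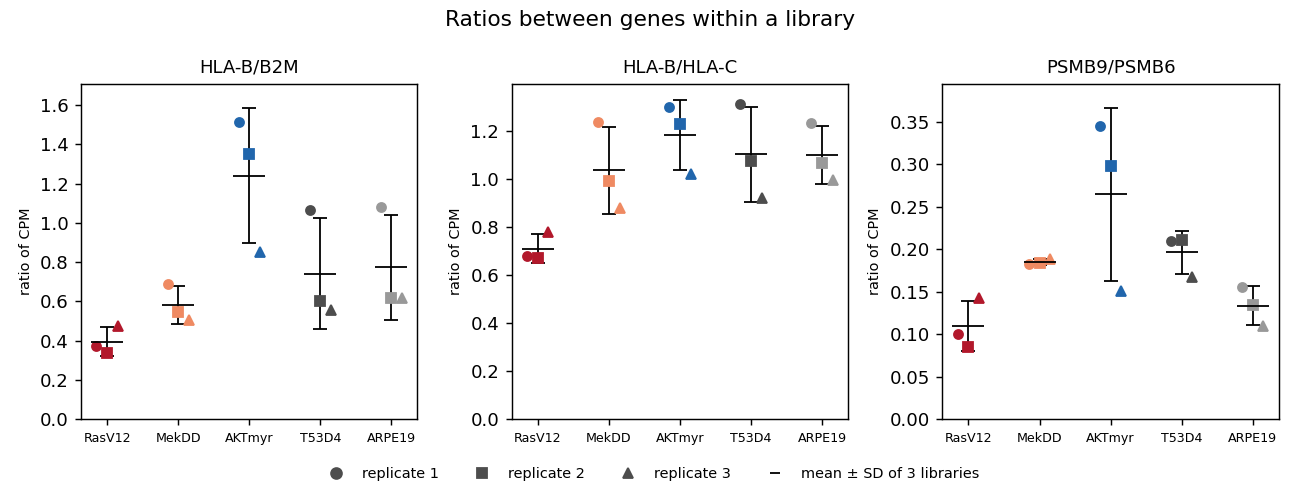
Ratio of CPM between 2 genes within each library (vertical axes, from 0), for HLA-B over B2M, HLA-B over HLA-C and PSMB9 over PSMB6, with points for the 3 libraries of each line and a bar for the mean ± SD. The RasV12 libraries lie below all others for both HLA-B ratios.

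The members' co-variation across libraries is given as a description, since the 15 libraries share 5 lines and 3 replicate numbers. Of the 36 pairs of members, 32 had a Pearson r of log2 CPM above 0 over the 15 libraries, with a median of 0.53. After the line means were removed, 29 pairs were above 0, with a median of 0.44. HLA-B and HLA-C were the closest pair (r = 0.94, and 0.93 after line means were removed). TAP1 and PSMB9, the divergent pair whose windows are printed above, had r = 0.80 (0.92 after line means were removed), and HLA-B and TAPBP had r = 0.82 (0.93). TAP2 had r = -0.04 to HLA-B, -0.35 to TAPBP and 0.24 to its partner TAP1, and its highest r was 0.55, to PSMB8 (0.45 after line means were removed).

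**Figure D4:**
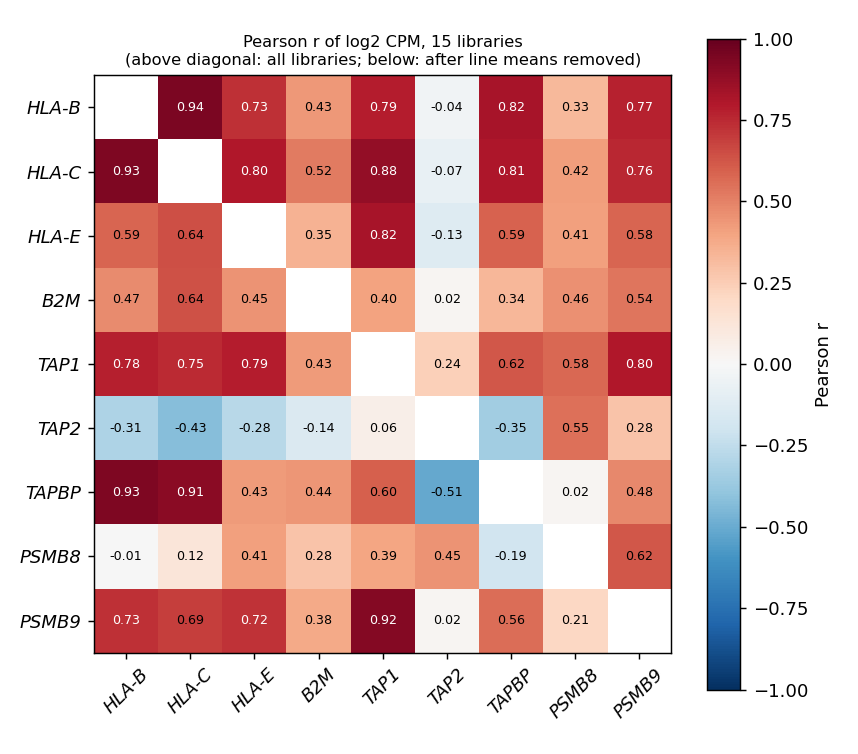
Pearson r of log2 CPM between each pair of class I antigen presentation genes over 15 libraries, above the diagonal as measured and below it after line means were removed (colour scale from -1 to 1). HLA-B, HLA-C, HLA-E and TAP1 are related to one another at r = 0.73 or more as measured, and TAP2 reaches 0.55 with PSMB8 and at most 0.28 with the other members.

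Among 10639 genes searched, HLA-F was the most like the mean standardised profile of the members over the 15 libraries (r = 0.95), followed by SCPEP1 (r = 0.92), CHST3 (r = 0.90) and ADAM17 (r = 0.89). For single members the most like gene outside the list was ADAM9 for HLA-B (r = 0.96), CNTNAP1 for TAPBP (r = 0.95), PDXDC1 for TAP1 (r = 0.93) and PLEKHH3 for PSMB9 (r = 0.93). HLA-F, a non-classical heavy chain, had 49.5, 61.2 and 40.8 CPM in AKTmyr, against 25.6, 26.0 and 23.4 CPM in T53D4, a log2 fold change of 1.01 (SE 0.31, adjusted p = 0.0321, edgeR quasi-likelihood test, Benjamini-Hochberg adjusted). In RasV12 it had 11.5, 14.9 and 34.9 CPM. HLA-F was picked for its likeness to the members over these same libraries. Its AKTmyr difference and its RasV12 values are therefore no independent support for theirs.

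Of 11 other class I and class I-like genes tested, 4 were called higher and 0 lower in AKTmyr against T53D4, and 3 higher and 1 lower in RasV12 against T53D4. Over all genes tested, 20.1% were called in either direction in AKTmyr and 24.4% in RasV12 against T53D4. HFE, the class I-like partner of the transferrin receptor, averaged 50.9 ± 5.42 CPM in AKTmyr and 25.3 ± 4.46 CPM in T53D4 (log2 fold change 1.01, SE 0.14, adjusted p = 0.000529, edgeR). MR1, which presents vitamin metabolites to mucosal T cells, averaged 17.7 ± 3.72 CPM in RasV12 and 54.2 ± 13.6 CPM in AKTmyr (log2 fold change -1.61, SE 0.27, adjusted p = 0.000356, edgeR). MICA, a stress ligand of the NKG2D receptor, was higher in both RasV12 and AKTmyr than in T53D4. It averaged 49.2 ± 13.0 CPM in RasV12 and 25.7 ± 4.37 CPM in T53D4 (log2 fold change 0.94, SE 0.19, adjusted p = 0.00262, edgeR), and 42.1 ± 8.68 CPM in AKTmyr against the same T53D4 libraries (log2 fold change 0.72, SE 0.19, adjusted p = 0.018, edgeR).

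Of 10 partners in peptide trimming and loading, 1 was called higher and 1 lower in RasV12 against T53D4, and 2 higher and 0 lower in AKTmyr against T53D4. The shares of all genes called in either direction were 24.4% in RasV12 and 20.1% in AKTmyr against T53D4. ERAP1, the aminopeptidase that trims peptides in the endoplasmic reticulum, was the one that fell in RasV12. It had 38.5, 36.3 and 48.4 CPM in RasV12, against 76.2, 70.7 and 54.8 CPM in T53D4 (log2 fold change -0.71, SE 0.17, adjusted p = 0.0065, edgeR), and was also lower in RasV12 than in AKTmyr, at 41.1 ± 6.47 CPM in RasV12 and 82.3 ± 13.2 CPM in AKTmyr (2.01-fold lower, SE 0.17 on the log2 scale, adjusted p = 0.0004, edgeR). The chaperone CALR averaged 907 ± 176 CPM in MekDD and 1780 ± 519 CPM in AKTmyr (log2 fold change -0.97, SE 0.25, adjusted p = 0.011, edgeR). Of 20 other proteasome genes tested, 0 were called in AKTmyr against T53D4 and 1 in RasV12 against T53D4, beside the same shares of all genes. The called gene was PSME1, a subunit of the interferon-inducible activator, at 111 ± 3.61 CPM in RasV12 and 145 ± 9.49 CPM in T53D4 (log2 fold change -0.38, SE 0.11, adjusted p = 0.0233, edgeR). PSMB10, the third immunoproteasome subunit, was not called in either comparison, with means of 4.11 CPM in RasV12, 4.85 CPM in AKTmyr and 4.91 CPM in T53D4.

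Among 17 transcription regulators of class I genes, 1 was called in RasV12 against T53D4 (NFYA, higher) and 1 in AKTmyr against T53D4 (NFKB1, lower). Of all genes tested, 24.4% were called in either direction in RasV12 and 20.1% in AKTmyr against T53D4. NLRC5, the coactivator of class I promoters, had 27.3, 40.4 and 27.0 CPM in AKTmyr, against 19.8, 24.5 and 22.4 CPM in T53D4. These did not overlap, and the log2 fold change of 0.51 (SE 0.19) missed the threshold (adjusted p = 0.0821, edgeR with Benjamini-Hochberg adjustment). NLRC5 was called lower in RasV12 than in AKTmyr, at 20.1 ± 4.81 CPM in RasV12 and 31.6 ± 7.68 CPM in AKTmyr (log2 fold change -0.65, SE 0.20, adjusted p = 0.0165, edgeR), and higher in AKTmyr than in ARPE19 (log2 fold change 0.89, SE 0.20, adjusted p = 0.00762, edgeR). IRF1, a transcription factor of the interferon response, averaged 11.9 ± 2.74 CPM in RasV12, 13.6 ± 3.59 CPM in AKTmyr and 12.4 ± 4.62 CPM in T53D4 and was not called in these comparisons.

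Of 48 interferon response genes tested, 7 were called higher and 18 lower in RasV12 against T53D4 (median log2 fold change -0.43), where 24.4% of all genes were called in either direction. In AKTmyr against T53D4, 6 were higher and 4 lower (median 0.08), where 20.1% of all genes were called. In MekDD against T53D4, 1 was higher and 2 lower (median -0.28), where 5.1% of all genes were called. GBP1, an interferon-induced GTPase, had 12.6, 12.2 and 25.9 CPM in RasV12, against 49.3, 44.5 and 32.2 CPM in T53D4 (log2 fold change -1.32, SE 0.25, adjusted p = 0.00181, edgeR). IFI44L went the other way, at 28.2 ± 6.97 CPM in RasV12 and 0.629 ± 0.153 CPM in T53D4 (log2 fold change 5.44, SE 0.38, adjusted p = 5.93e-07, edgeR), so the list did not move one way in RasV12. TRIM22, an interferon-induced ubiquitin ligase, averaged 118 ± 40.6 CPM in AKTmyr and 63.2 ± 6.65 CPM in T53D4 (log2 fold change 0.90, SE 0.22, adjusted p = 0.0109, edgeR).

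Class II presentation genes, which are usually confined to professional antigen-presenting cells, were mostly higher in RasV12. Of 6 tested, 5 were called higher in RasV12 against T53D4 and 2 higher in AKTmyr against T53D4. Calls in either direction made up 24.4% of all genes in RasV12 and 20.1% in AKTmyr against T53D4. CD74 had 11.8, 25.0 and 48.0 CPM in RasV12, against 5.96, 5.53 and 4.76 CPM in T53D4 (log2 fold change 2.38, SE 0.56, adjusted p = 0.00645, edgeR). In cultures measured in bulk, fewer cells with a transcript and less of it per cell cannot be told apart.

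Of the 9 members, 8 lie on chromosome 6 between HLA-E and TAPBP. The 57 other genes of that span with a mean of at least 5 CPM gave 3 called higher and 8 lower in AKTmyr against T53D4, with a median log2 fold change of -0.22, against 994 higher and 1130 lower of all 10648 genes at that level (median -0.03). The members' median was 0.40. In RasV12 against AKTmyr they gave 14 higher and 4 lower, with a median of 0.22, against 2238 higher and 2064 lower of all 10648 genes (median 0.04). The members' median was -0.69, and no test of these differences was made.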

How the data were processed

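Poly(A) RNA was sequenced by directional paired-end sequencing, per the labels' protocols. Tests used the authors' deposited counts of reads per gene, not normalized, in a table of 15517 rows. Of these, 7 are construct sequences and were left out of library sizes and tests. The submitters' processing notes name build hg38, HISAT2 2.1.0 and featureCounts 1.6.4 among the tools, besides fastp 0.20.0 and SAMtools 1.9, and give neither roles nor settings. Gene positions came from the deposited annotation and upstream sequences from RefSeq GRCh38.p14.

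CPM values were computed from the counts with trimmed-mean (TMM) factors, and log2 CPM with a prior count of 2. Low counts were removed by edgeR's filterByExpr, grouped by line, at a minimum count of 10. One edgeR quasi-likelihood fit (edgeR 4.0.16, R 4.3.3) of all 15 libraries by line gave 10 comparisons, with Benjamini-Hochberg adjustment over 13599 genes each and calls under 0.05. DESeq2 1.42.0, DESeq2 size factors, no filter, construct rows kept, the 2 lines alone, a replicate block and leaving out each replicate were tried as alternatives.

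The members and gene lists were chosen with earlier results of these data known. All members were named. Other genes were named where they belonged to a fixed set of 14 or were among up to 3 called genes per list with the largest change, if the replicates did not overlap and the higher of the lines averaged 5 CPM or more. Likeness was searched among tested genes by Pearson r, and some genes these rules select are not reported here. Within-line deviations of same-numbered libraries correlated above 0.1 in every pair in 8 of the 10 comparisons, so the numbers were taken to pair the libraries there. All 15 libraries had their best match in another line under their own number. The comparisons of RasV12 with AKTmyr and with ARPE19 did not reach the limit of 0.1 in every pair. The main calls in all 10 comparisons came from the fit by line and did not use this pairing. The replicate block was run as an alternative only.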

Additional observations from a re-analysis of the deposited data

How the results depend on the processing

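Over 1170 alternative values of single members, 0 changed direction while called, 25 lost the call and 34 gained it. Leaving out 1 library in turn gave 0 to 2 members called in RasV12 against T53D4, 0 to 4 in AKTmyr against T53D4, 4 to 5 in RasV12 against AKTmyr, 1 to 5 in MekDD against AKTmyr, 0 to 1 in RasV12 against ARPE19 and 2 to 4 in AKTmyr against ARPE19. Over all 13685 to 13807 genes tested, 1083 to 1266 were called higher and 1410 to 1656 lower in RasV12 against T53D4. In AKTmyr against T53D4, 812 to 1359 were higher and 793 to 1310 lower. In RasV12 against AKTmyr, 2023 to 2758 were higher and 2225 to 2919 lower. In MekDD against AKTmyr, 1072 to 1774 were higher and 1179 to 1924 lower. In RasV12 against ARPE19, 1370 to 2013 were higher and 1601 to 2263 lower. In AKTmyr against ARPE19, 591 to 1058 were higher and 737 to 1029 lower. Without RasV12 replicate 3 or AKTmyr replicate 3, HLA-E gained the call in RasV12 against AKTmyr, and without AKTmyr replicate 3 HLA-B gained it in AKTmyr against ARPE19. Fitting the 2 lines alone gave 0 members in AKTmyr against T53D4 and 1 in MekDD against ARPE19. Over all genes, it called 788 higher and 661 lower of 13164 in AKTmyr against T53D4. It called 417 higher and 634 lower of 13145 in MekDD against ARPE19. DESeq2 gave 2 in RasV12 against T53D4, 1 in RasV12 against ARPE19, 3 in AKTmyr against T53D4 and 4 in AKTmyr against ARPE19, each with HLA-B added, and 5 in RasV12 and 4 in MekDD against AKTmyr, with HLA-E added. Of all 13599 genes, DESeq2 called 1769 higher and 2101 lower in RasV12 against T53D4, and 2226 and 2463 in RasV12 against ARPE19. In AKTmyr, it called 1768 higher and 1638 lower against T53D4, and 1425 and 1435 against ARPE19. Against AKTmyr, it called 2800 higher and 3105 lower in RasV12, and 1886 and 2245 in MekDD. Leaving out replicate 3 of every line, an alternative chosen after seeing the data, gave 2 in RasV12 against T53D4, 1 in RasV12 against MekDD, 6 in RasV12 against AKTmyr (HLA-E, and TAPBP with a log2 fold change of -1.25, added), 5 in MekDD against AKTmyr, 3 in AKTmyr against T53D4 (PSMB9 added), 2 in RasV12 against ARPE19 and 1 in MekDD against ARPE19. Of all 13777 genes tested there, calls were 905 higher and 1418 lower in RasV12 against T53D4, and 716 and 638 in AKTmyr against T53D4. In RasV12 they were 405 and 528 against MekDD, 2285 and 2569 against AKTmyr, and 1677 and 2007 against ARPE19. In MekDD they were 1293 and 1561 against AKTmyr, and 585 and 801 against ARPE19. The causes were not tested.

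With the replicate block, 2 members were called in RasV12 against T53D4 and 5 in AKTmyr against ARPE19. The block also raised the calls over all 13599 genes. They were 2259 higher and 2607 lower in RasV12 against T53D4, against 1466 and 1847 in the main fit. In AKTmyr against ARPE19 they were 1960 higher and 2067 lower, against 1085 and 1205. In RasV12 against ARPE19, where the numbers did not meet the pairing limit, the block gave 1 member, HLA-B, and in RasV12 against AKTmyr it changed no call. HLA-B in AKTmyr against T53D4 and HLA-E in MekDD against AKTmyr also gained the call under the block, and no other member call changed. Over all genes, the block gave 2304 higher and 2434 lower in AKTmyr against T53D4, and 2756 and 2725 in MekDD against AKTmyr. It gave 2917 higher and 3005 lower in RasV12 against ARPE19. PSMB9 and TAP2 rest on the fewest reads.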
